A study of Mus musculus with 7 samples.

Results

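Short RNAs with disputed microRNA status were followed through kidneys of megabladder and wild-type mice: mmu-miR-689, mmu-miR-690, mmu-miR-709, mmu-miR-715, mmu-miR-720 and mmu-miR-805, written below without the species prefix. They were chosen by name, as array features annotated with mouse microRNA names that resemble fragments of ribosomal, transfer or mitochondrial RNA or are otherwise doubtful. The members number 6 of the 611 mouse microRNAs on the array and 16 of its 1857 probes other than controls. All 6 had at least 1 probe above background on at least 3 arrays, and so were among the 213 microRNAs tested. They were proposed with the contrast between the genotypes already known, so every genotype difference given for them here is a description, and no test of them is read as support.

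A microRNA is cut by Drosha and Dicer from a hairpin transcript, loaded into an Argonaute protein, and pairs through its seed, near its 5′ end, with messenger RNAs that it represses. Transfer, ribosomal and mitochondrial RNAs also give short fragments when they are cut or decay, and an array probe for a short RNA does not distinguish the source. Human miR-720 was withdrawn from the microRNA registry as a fragment of a threonine transfer RNA, and the miR-805 sequence lies in the mitochondrial genome. In mouse cells miR-709 is found largely in the nucleus, where it acts on the maturation of miR-15a and miR-16-1, and miR-690 has been described in vesicles of macrophages.

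Only miR-690 had sequences in the RefSeq tables used here (GRCm38.p6). They are shown because a probe named miR-690 is meant to report the mature stretch, which is annotated within the hairpin. Capitals mark the seed, bases 2 to 8, in the mature sequence (chr16:28599940-28599961, minus strand) and the mature stretch in the hairpin (chr16:28599935-28600043, minus strand).
miR-690 mature: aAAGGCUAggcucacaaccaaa
miR-690 hairpin: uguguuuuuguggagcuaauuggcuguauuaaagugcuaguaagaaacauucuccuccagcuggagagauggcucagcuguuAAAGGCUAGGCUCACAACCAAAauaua
The hairpin was 109 bases long and lay within Fgf12, which encodes an intracellular fibroblast growth factor homologue. Its seed, AAGGCUA, was carried by 1 of 1679 mature mouse microRNA names in the table, miR-690 itself. Every 18-base window of the hairpin was searched on both strands in 32851 promoter windows around gene starts. The window most often found was GCTGGAGAGATGGCTCAG, bases 60 to 77 of the hairpin, with 44 promoters (0.134%), and 72 of the 92 windows were found in none. These letters occur in rodent B2-type and B3-type short interspersed repeats, as background knowledge. Windows inside the mature stretch were found in at most 2 promoters. The gene table also held miR-709, on chromosome 8 within the bounds of Rfx1, a transcription factor of the regulatory factor X family. No sequence is printed for the other 5 members, and the source of the RNA they hybridised was not tested.

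The megabladder line is a mouse mutant in which normal smooth muscle fails to form in the bladder wall, which blocks the outflow of urine and leaves the kidneys dilated. MicroRNAs were measured in total RNA of snap-frozen whole kidneys from 3 homozygous megabladder males (mgb-/-, mice 2, 3 and 4) and 4 wild-type males (mgb+/+, mice 1, 2, 3 and 4). The label of every sample gives an age of 4 weeks, and the protocol gives 3.5 to 4 weeks. Each mouse had 1 Cy3-labelled, 1-colour Agilent array. The series text names 4 mutant kidneys, but only megabladder mice 2, 3 and 4 are among the samples.

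Between 19.0% and 21.8% of probes were above background on an array. The 75th percentile of signal over the 292 probes detected on all 7 arrays, used to scale the arrays, was 269, 333 and 224 units in megabladder and 391, 440, 496 and 348 units in wild-type kidneys. It was lower in all 3 megabladder arrays, by a log2 difference of -0.61 (exact 2-sided permutation test over arrays, p = 0.0286, the smallest that the 35 splits allow). This depended on the percentile: over all probes the 75th percentile differed by 0.13 (p = 0.743, same exact permutation test), and the median over detected probes by -0.46 (p = 0.0857, same exact permutation test). All arrays were on 1 slide read in 1 scan, and megabladder and wild-type arrays lay in different rows of it, so genotype and the row of the slide cannot be told apart. Wild-type mice 3 and 4 stood apart from the other 5 arrays: on the first principal component, with 70.8% of the variance, megabladder kidneys lay at -3.58, -3.62 and -4.10, wild-type mice 1 and 2 at -1.85 and -0.99, and wild-type mice 3 and 4 at 7.22 and 6.92. Kidney tubule microRNAs miR-192, miR-194, miR-204 and miR-30a were above background on 7 of 7 arrays. The neuronal miR-124 was above background on none, and the liver miR-122 on 1, a megabladder array. In bulk tissue, fewer cells of a type and less RNA per cell cannot be told apart.

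Of the members' 16 probes, 10 were above background on at least 3 arrays, 9 of them on all 7, and 5 on none. The remaining probe, probe 4 of miR-715, was above background on 1 array, megabladder. Both probes of miR-689, miR-690, miR-709 and miR-720 were bright enough to be tested, but only 1 of 4 for miR-715 and 1 of 4 for miR-805. No member spot was saturated. A level below is log2 of the scaled signal, averaged over a microRNA's tested probes, and a difference is megabladder minus wild-type with its 95% interval from limma.

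At the scaled level, 3 of the 6 members had a positive difference and 3 a negative one, with a median of -0.03, beside 0.09 over all 213 tested microRNAs. Of those 213, 145 had a positive difference and 68 a negative one. miR-715 was the 1 member among the microRNAs past an adjusted p of 0.05 (limma, Benjamini-Hochberg over all 213), where the background was 7 microRNAs (3.29%), 6 of them higher (2.82%) and 1 lower (0.469%). Without scaling, 4 members passed, all lower in megabladder (miR-690, miR-709, miR-720 and miR-805), where the background was 69 microRNAs (32.4%), 68 of them lower (31.9%), and the median of all tested microRNAs was -0.50. The scaled and unscaled values of an array differ by its scaling factor, and values are given both ways below.

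**Figure D1:**
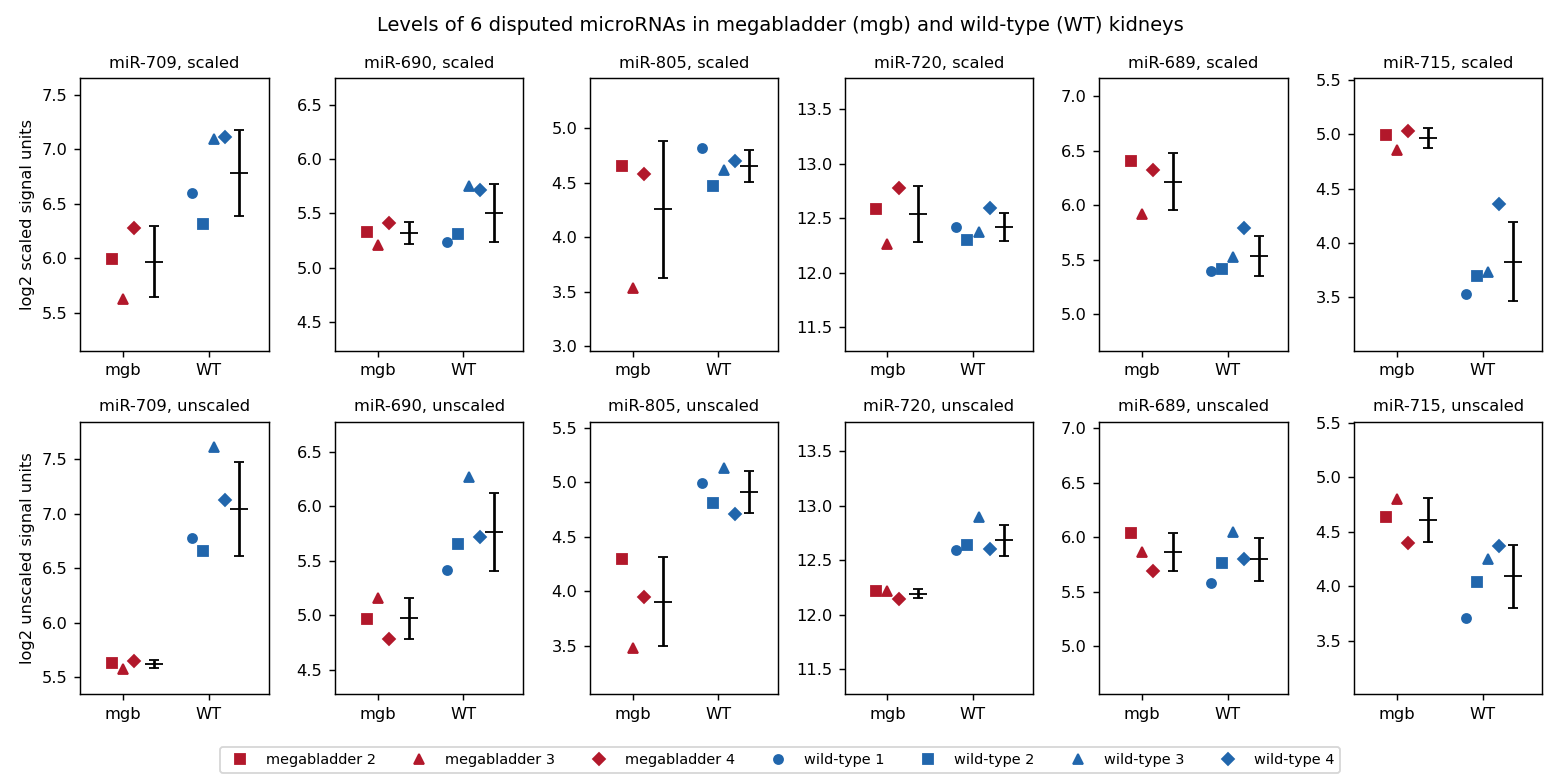
Log2 signal of each member on each array, scaled (top row) and unscaled (bottom row), in megabladder (red, left) and wild-type (blue, right) kidneys. Symbols are mice, bars are the mean and SD (n = 3 and 4), and every panel spans the same 2.5 log2 units. miR-709 is lower in every megabladder kidney in both rows, miR-715 is higher in both, and miR-689 is higher in every one only in the top row.

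miR-709, the nuclear short RNA, had the most negative difference of all 213 microRNAs. Scaling by a single factor per array shifts every difference alike, apart from floored values. The same rank scaled and unscaled is therefore a single result. Its scaled level was 5.99, 5.63 and 6.28 in megabladder and 6.60, 6.31, 7.10 and 7.11 in wild-type kidneys. Every megabladder value lay below every wild-type value, but the gap between the nearest pair, megabladder mouse 4 and wild-type mouse 2, was only 0.03. Groups without overlap, megabladder lower, were found for 3.29% of microRNAs at the scaled level. The means were 5.97 ± 0.33 in megabladder and 6.78 ± 0.39 in wild-type kidneys (SD, n = 3 and 4), a difference of -0.81 (-1.39 to -0.23; adjusted p = 0.138). Wild-type mice 3 and 4, the arrays that stood apart, had the highest values, and without both of them the difference was -0.49 (adjusted p = 0.385).

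Unscaled, the gap around miR-709 was wide. Its brighter probe, probe 2, gave 166, 145 and 153 units in megabladder kidneys, against 375, 338, 673 and 489 units in wild-type kidneys. The dimmer probe 1 gave 14.8, 15.7 and 16.5 units in megabladder kidneys, against 32.1, 30.1, 57.0 and 39.8 units in wild-type kidneys. Neither probe's groups overlapped unscaled, where 37.1% of tested probes had groups without overlap and megabladder lower. For miR-709 as a whole the unscaled difference was -1.42 (-1.97 to -0.88; adjusted p = 0.0274), and the megabladder kidneys varied little among themselves (SD 0.04, against 0.43 in wild-type). After scaling, probe 1 overlapped (-0.69, -1.26 to -0.12) and probe 2 did not (-0.94, -1.56 to -0.32). The difference of the 2 probes from each other was -0.25, beside a median spread of 0.0754 among the 163 microRNAs with several tested probes, so the size of the miR-709 difference depended on the probe.

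miR-720, whose human namesake was withdrawn as a transfer RNA fragment, gave a large part of each array's signal. It made up 12.34%, 11.48% and 13.42% of the summed total gene signal in megabladder and 11.57%, 10.74%, 10.55% and 11.95% in wild-type kidneys. These are shares of hybridisation signal, not of molecules, since probes differ in how well they bind. Its scaled level was 12.58, 12.27 and 12.78 in megabladder and 12.42, 12.30, 12.38 and 12.59 in wild-type kidneys. The groups overlapped, with the lowest and the highest value both in megabladder kidneys. The means of 12.54 ± 0.26 in megabladder and 12.42 ± 0.13 in wild-type kidneys (SD, n = 3 and 4) differed by 0.12 (-0.21 to 0.46), close to the median of all microRNAs.

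Unscaled, both miR-720 probes were lower in every megabladder kidney. Probe 2 gave 10655, 10868 and 9689 units in megabladder kidneys, against 13229, 14001, 16803 and 13421 units in wild-type kidneys. Probe 1 gave 2128, 2072 and 2123 units in megabladder kidneys, against 2881, 2918, 3454 and 2880 units in wild-type kidneys. The unscaled difference of miR-720 was -0.49 (-0.81 to -0.17; adjusted p = 0.0387), nearly the unscaled median of all tested microRNAs, -0.50. Unscaled groups without overlap were found for 42.3% of microRNAs, 39.9% with megabladder lower and 2.35% with megabladder higher.

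miR-805, the name tied to the mitochondrial genome, rested on its probe 4 alone, since probes 1 to 3 were above background on no array. Its scaled level was 4.66, 3.54 and 4.58 in megabladder and 4.82, 4.47, 4.62 and 4.70 in wild-type kidneys. Megabladder mouse 3 lay far below the other 6 arrays and was the array on which the probe was not above background, and the other 2 megabladder kidneys lay within the wild-type range. The means were 4.26 ± 0.63 in megabladder and 4.65 ± 0.15 in wild-type kidneys (SD, n = 3 and 4), a difference of -0.40 (-1.04 to 0.25). Without megabladder mouse 3 the difference was -0.03, so the scaled difference rested on that kidney. Without wild-type mice 3 and 4 it was -0.39.

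Without scaling, the miR-805 groups did not overlap. Probe 4 gave 19.6, 11.2 and 15.4 units in megabladder kidneys, against 32.0, 28.2, 35.2 and 26.1 units in wild-type kidneys. Every megabladder signal was below the lowest wild-type signal, as for 39.9% of microRNAs unscaled. The unscaled difference was -1.01 (-1.51 to -0.50; adjusted p = 0.0274), the 6th lowest of 213. Its rank after scaling was the same, and scaling could alter a rank only through floored values.

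miR-690, whose sequences are shown above, differed little between genotypes after scaling. Its level was 5.33, 5.21 and 5.42 in megabladder and 5.24, 5.31, 5.75 and 5.71 in wild-type kidneys. Wild-type mice 3 and 4 were the 2 highest, and wild-type mice 1 and 2 lay within the megabladder range. The means of 5.32 ± 0.10 in megabladder and 5.50 ± 0.27 in wild-type kidneys (SD, n = 3 and 4) differed by -0.18 (-0.55 to 0.19), and without wild-type mice 3 and 4 the difference was 0.05. Unscaled, probe 1 gave 36.3, 42.5 and 33.3 units in megabladder kidneys, against 49.9, 58.0, 89.6 and 61.7 units in wild-type kidneys. Probe 2 gave 27.0, 29.9 and 22.8 units in megabladder kidneys, against 36.5, 43.8, 66.5 and 45.0 units in wild-type kidneys. Neither probe's groups overlapped, and the unscaled difference was -0.80 (-1.31 to -0.28; adjusted p = 0.0381). Unscaled groups without overlap, megabladder lower, were found for 37.1% of tested probes.

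miR-715 was higher in megabladder kidneys, on a single dim probe. Its scaled level was 4.996, 4.856 and 5.033 in megabladder and 3.535, 3.693, 3.733 and 4.359 in wild-type kidneys. All 3 megabladder values were above all 4 wild-type values, and wild-type mouse 1 was close to the floor of 3.51 set for dim signals. Groups without overlap, megabladder higher, were found for 18.8% of microRNAs. The means of 4.96 ± 0.09 in megabladder and 3.83 ± 0.36 in wild-type kidneys (SD, n = 3 and 4) differed by 1.13 (0.67 to 1.60; adjusted p = 0.0315), a 2.19-fold higher scaled signal.

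The signal behind miR-715 was near the lower end of what the arrays read. Probe 3 gave 24.8, 27.9 and 21.1 units in megabladder kidneys, against 13.1, 16.4, 19.0 and 20.6 units in wild-type kidneys, with spots of the probe varying by 2.51% to 15.1% (CV) within an array. Unscaled, the groups were still apart, by 0.04 log2 units, and the difference was 0.52 (0.06 to 0.98; adjusted p = 0.0761). Probes 1 and 2 were above background on no array. The adjusted p at the scaled level exceeded 0.05 when any 1 of 5 arrays was left out (megabladder mice 2 and 4, wild-type mice 1, 2 and 3), while the difference was 1.03 to 1.31 over all 7 such fits. Without wild-type mice 3 and 4 together it was 1.35 (adjusted p = 0.00968).

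miR-689 was higher in every megabladder kidney after scaling by detected probes, and its groups were apart under only 1 of the 5 scalings compared below. Its scaled level was 6.41, 5.92 and 6.33 in megabladder and 5.40, 5.41, 5.53 and 5.79 in wild-type kidneys. No megabladder value fell within the wild-type range, the nearest pair being megabladder mouse 3 and wild-type mouse 4. Scaled groups without overlap, megabladder higher, were found for 18.8% of microRNAs. The means of 6.22 ± 0.26 in megabladder and 5.53 ± 0.18 in wild-type kidneys (SD, n = 3 and 4) differed by 0.68 (0.31 to 1.05; adjusted p = 0.0551). Without megabladder mouse 3 the adjusted p was 0.0240, with a difference of 0.83, and without wild-type mice 3 and 4 the difference was 0.81 (adjusted p = 0.173).

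Unscaled, miR-689 signal overlapped between the genotypes. Probe 2 gave 104, 87.6 and 76.6 units in megabladder kidneys, against 70.0, 80.8, 97.6 and 82.2 units in wild-type kidneys. Probe 1 gave 41.9, 38.6 and 35.0 units in megabladder kidneys, against 32.5, 36.3, 44.8 and 37.8 units in wild-type kidneys. Both probes overlapped, and the unscaled difference was 0.07 (-0.31 to 0.46). The urothelial miR-205 was above background in 3 of 3 megabladder and 1 of 4 wild-type kidneys, and its part in the miR-689 and miR-715 differences was not tested.

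**Figure D2:**
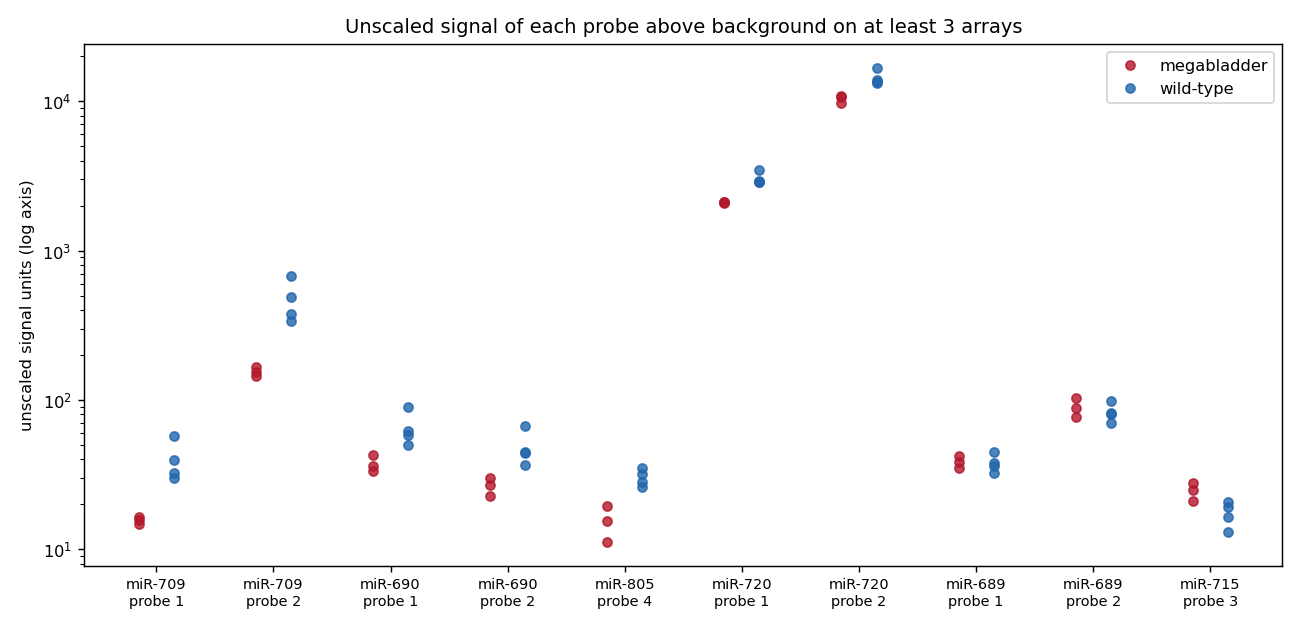
Unscaled signal on a log axis for the 10 member probes above background on at least 3 arrays, in megabladder (red, left of each pair) and wild-type (blue, right) kidneys, 1 point per array. Signals overlap between genotypes for both miR-689 probes, lie higher in megabladder kidneys for miR-715 probe 3 and lower for the other 7 probes.

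Probe by probe, no member passed the adjusted threshold at the scaled level, where limma called 0 of 404 tested probes (0%), although 96 probes had an unadjusted p under 0.05 and an ordinary linear model called 2. Scaled groups did not overlap for 4 of the 10 tested member probes, where the background was 26.7% (23.5% higher, 3.22% lower): both miR-689 probes and miR-715 probe 3 were higher and miR-709 probe 2 was lower in megabladder. Unscaled, 6 member probes passed, all lower in megabladder, where the background was 89 probes (22%). They were both probes of miR-690 and miR-709, probe 1 of miR-720 and probe 4 of miR-805. Unscaled groups did not overlap for 8 of the 10 tested member probes, 7 lower and 1 higher in megabladder, where the background was 39.1% (37.1% lower, 1.98% higher). The 2 probes of miR-689, miR-690, miR-709 and miR-720 each differed in the same direction. Probes of opposite direction were found for 20 of the 163 microRNAs with several tested probes, so 0 of 4 members is near the background.

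Levels taken relative to miR-720 on the same array do not depend on a scaling factor that multiplies the array. On this measure the megabladder minus wild-type log2 difference was -0.93 for miR-709, -0.52 for miR-805, -0.30 for miR-690, 0.56 for miR-689 and 1.01 for miR-715. The groups did not overlap for miR-709, miR-805, miR-689 and miR-715, and overlapped for miR-690, where the background was 24.1% of the other 212 tested microRNAs (14.6% higher, 9.43% lower). For miR-805 the gap was only 0.03, and without megabladder mouse 3 its difference was -0.29. Without wild-type mice 3 and 4 the difference was -0.67 for miR-709 and -0.14 for miR-690. For miR-709 the ratio, centred on wild-type, was -0.947, -0.997 and -0.859 in megabladder kidneys, against -0.174, -0.345, 0.358 and 0.161 in wild-type kidneys. These differences show unequal change between members within an array and not which of the members changed.

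**Figure D3:**
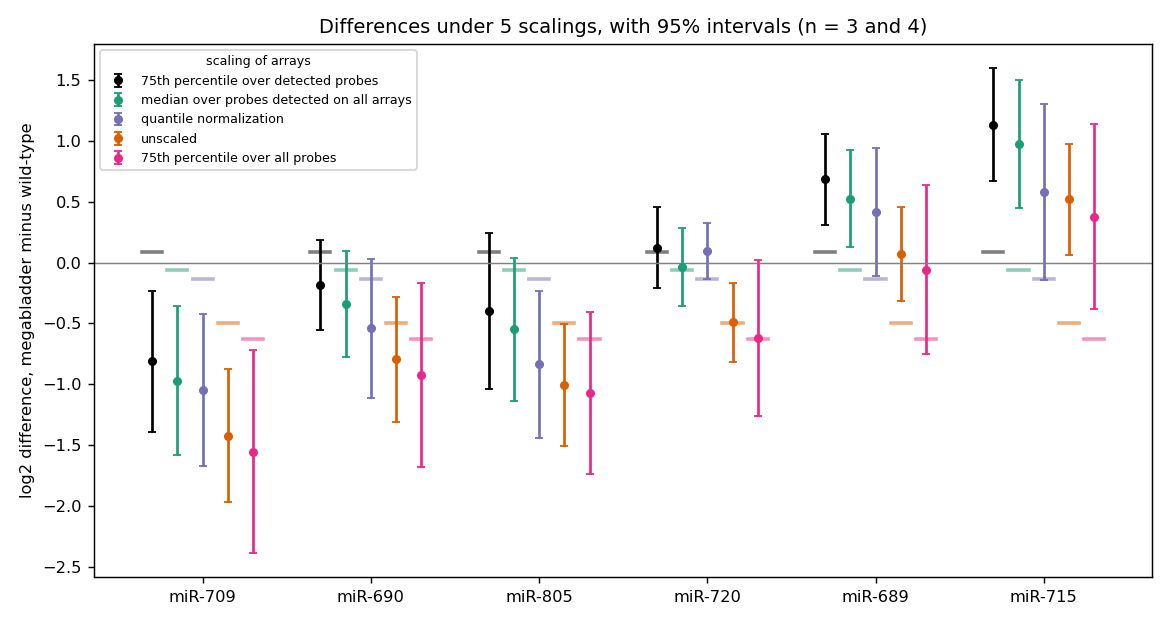
Log2 difference, megabladder minus wild-type, of each member under 5 scalings of the arrays, with 95% intervals (n = 3 and 4). Short bars mark the median difference of all 213 microRNAs under the same scaling. miR-709 lies below that median and miR-715 above it under each of the 5 scalings, while miR-720 lies near it. Apart from floored values, only quantile normalization could change a member's place relative to that median.

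Across the 5 scalings the median difference of all microRNAs ranged from -0.62 to 0.09 log2 units, so members were also set against that median. Relative to it, miR-709 lay at -0.93 to -0.90, miR-805 at -0.70 to -0.45 and miR-690 at -0.40 to -0.27. miR-720 lay at 0.01 to 0.24, miR-689 at 0.55 to 0.60 and miR-715 at 0.72 to 1.05. All scalings but quantile normalization divide an array by a single factor or by none. They shift every difference alike, apart from floored values, so their agreement here was fixed in advance. Under quantile normalization miR-709 lay at -0.91, miR-805 at -0.70, miR-690 at -0.40, miR-720 at 0.24, miR-689 at 0.55 and miR-715 at 0.72. The sign of the absolute difference changed with scaling for miR-689, negative under 1, and for miR-720, negative under 3. Quantile normalization gives equal ranks equal values, and the brighter miR-720 probe, probe 2, differed by 0 under it. The miR-720 difference under that scaling, the one behind 0.24, therefore came from probe 1 alone (0.20).

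**Figure D4:**
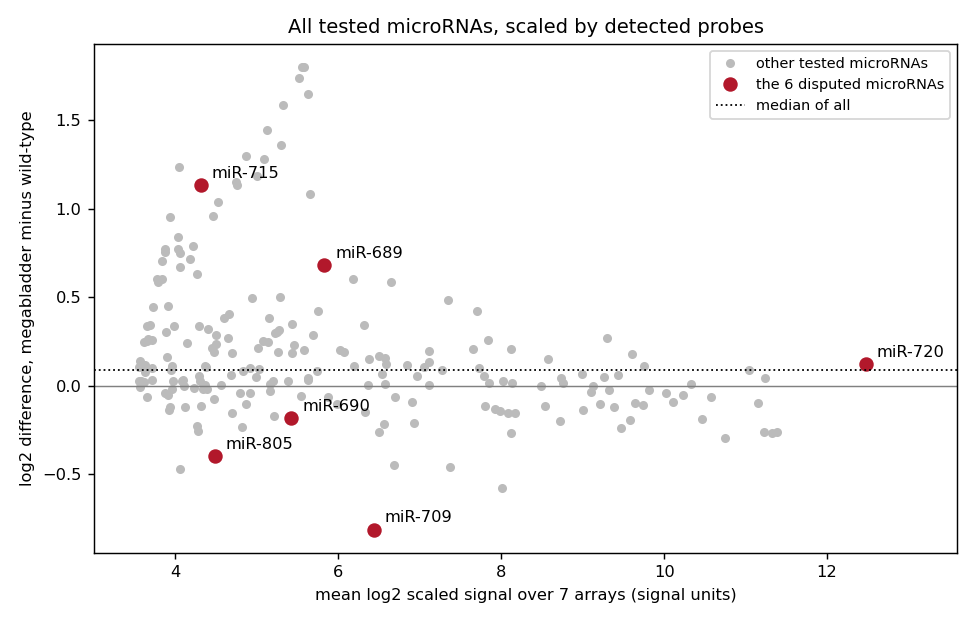
Scaled log2 difference, megabladder minus wild-type, against mean scaled log2 signal over 7 arrays for the 213 tested microRNAs (grey), with the 6 members in red and the median of all as a dotted line at 0.09. miR-709 is the lowest point, and miR-720 lies near the median at the right.

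The tested microRNAs whose scaled profile over the 7 arrays was nearest to a member's were found by the root mean square difference of centred log2 levels, where smaller is more alike. They share the arrays and the scaling factor with the member. miR-720 was nearest to miR-103 (0.0712) and miR-200b* (0.0788), with a median of 0.240 over all tested microRNAs. miR-690 was nearest to miR-219 (0.0761) and let-7b (0.0970), with a median of 0.303. For miR-709, miR-155, a microRNA of activated immune cells, was nearest (0.182), then miR-193 (0.212), with a median of 0.581. miR-155 itself differed by -0.47 (adjusted p = 0.388) and was at the floor of 3.51 in megabladder mouse 3.

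miR-805 was nearest to miR-203 (0.125), an epithelial microRNA, and miR-582-5p (0.176), with a median of 0.445. The nearest to miR-689 were let-7f* (0.149) and miR-702 (0.164), with a median of 0.407, and let-7f* was at the floor in wild-type mice 2 and 3. miR-715 had no close neighbour. The nearest were miR-689 (0.272) and let-7d* (0.319), with a median of 0.619, and let-7d* was at the floor in wild-type mice 3 and 4. Among the 15 pairs of members, miR-690 and miR-720 were closest (0.229) and miR-709 and miR-715 farthest apart (0.995).

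Of 41 other doubtful mouse names, 17 were on the array and 4 were tested, none past the adjusted threshold. All 4 had a positive scaled difference, with a median of 0.60, beside 0.09 over all microRNAs, and 2 of 4 a positive unscaled one. Over all 213 tested microRNAs, 145 differences were positive scaled and 36 unscaled. miR-712, known in mouse as cut from the ribosomal RNA precursor, had a level of 4.85, 4.62 and 5.21 in megabladder and 4.49, 4.32, 4.36 and 4.77 in wild-type kidneys. Its groups overlapped, with a difference of 0.40 (-0.0029 to 0.81; adjusted p = 0.218). The difference was 0.71 for miR-1196 (adjusted p = 0.138), 1.18 for miR-1187 (adjusted p = 0.247) and 0.48 for miR-1224 (adjusted p = 0.397), which is spliced out as a short intron. Wild-type mice 3 and 4 had the lowest levels of both miR-1187 and miR-1196, and without them the difference was 0.25 for miR-1187 and 0.35 for miR-1196.

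In the authors' deposited table, values under a member's name did not follow that microRNA's scanner signal for the brightest members. The authors' deposited table lists miR-720 at 20, its lowest value, on all 7 arrays, and miR-721, whose probes were above background on 0 arrays, at 9741, its highest value, on all 7. The authors' deposited table lists miR-709 at 20 throughout, and under miR-710 it lists 168, 120 and 180 in megabladder and 265, 210, 350 and 350 in wild-type kidneys. These follow the scanner's total signal of miR-709, which was 118, 103 and 111 units in megabladder and 260, 235, 468 and 342 units in wild-type kidneys.

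Under miR-690, the authors' deposited table lists 124, 90 and 112 in megabladder and 76, 79, 99 and 110 in wild-type kidneys, the values that it also lists for miR-689. Under miR-691, the authors' deposited table lists 66, 62 and 64 in megabladder and 66, 69, 106 and 103 in wild-type kidneys, which follow the miR-690 signal. The rows named miR-715 and miR-805 of the authors' deposited table stand at 20 throughout. In the authors' deposited table the name after miR-715, miR-717, stands at 28 to 31 in megabladder and 23 to 34 in wild-type kidneys. The name after miR-805 in the authors' deposited table, miR-871, stands at 23 to 26 in megabladder and 28 to 33 in wild-type kidneys. In alphabetical order, all 238 names above the lowest value among the first 493 matched their own scanner signal within 1 log2 unit. Of 31 such names from miR-670 on, where the members lie, 29 matched the name just before and 17 their own, so no member value was taken from the authors' deposited table.

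**Figure D5:**
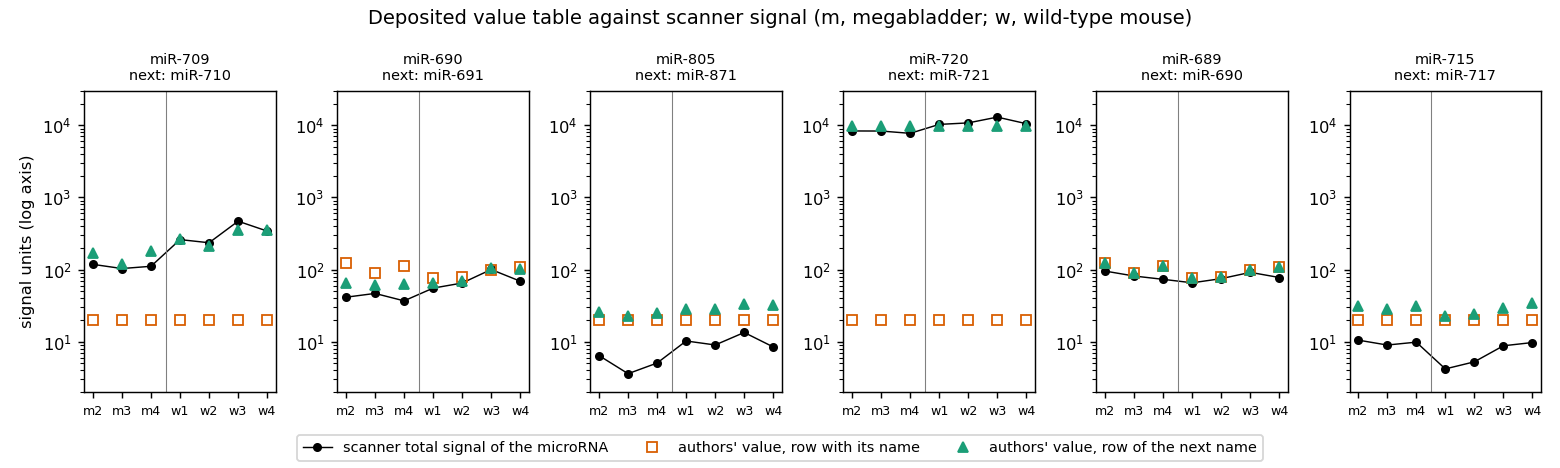
Scanner total signal of each member (black), the authors' deposited value under its own name (orange squares) and under the next name (green triangles), on a log axis, in megabladder (m, left) and wild-type (w, right) kidneys. For miR-709 and miR-720 the triangles follow the black points and the squares stay at 20.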

How the data were processed

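The authors read spot intensity with Agilent Feature Extraction, version 10.7.3.1 (submitters' processing notes and file headers). Deposited scanner intensity is background-subtracted and not scaled between arrays. RNA input was 100 ng, per the labels' protocols. The authors' deposited table holds intensity values from 20 to 9741, and no source used here says how it was scaled.

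Control spots and outlier spots (3.45% to 3.77% per array) were left out and spots of a probe averaged. Signals were scaled by the 75th percentile over 292 probes detected on all arrays, floored at 11.4 units (unscaled, 10.8) and put on a log2 scale. A probe was above background where at least 0.5 of its spots were, and a microRNA is the mean of its probes above background on at least 3 arrays. limma 3.58.1 (R 4.3.3; lmFit, eBayes) compared genotypes with Benjamini-Hochberg adjustment. It was tested on simulated data. The number of arrays limits the precision. Likeness to other microRNAs named 2 per member by smallest root mean square difference; the other doubtful names shown are all 4 that were tested. Leaving out wild-type mice 3 and 4 together, or megabladder mouse 3 for ratios to miR-720, was chosen after seeing the data. Members and lists were chosen with earlier results of these data known. Members were matched to RefSeq (GRCm38.p6) by name: 2 of 6 had a gene and 1 a mature sequence. The array's own annotation names another build, and no coordinates were taken from it. Alternatives covered scaling, background, floor, filter, signal, probes, test, block and single arrays. In the normexp alternative, with an offset of 50, median spot signals replaced the planned means. Figures were drawn with matplotlib.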

Additional observations from a re-analysis of the deposited data

How the results depend on the processing

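The direction of miR-709, miR-715 and miR-805 was the same under every alternative that gave a value, and the other members changed sign under some. Not every alternative could alter a difference. For miR-715 and miR-805 the floor of 1 unit, the ordinary linear model, and the median or brightest probe left it unchanged. miR-805 had no value with probes above background on all arrays, and was only -0.03 without megabladder mouse 3. Unscaled, miR-720 differed by -0.49 (probes -0.52 and -0.46), and miR-690 (-0.80), miR-709 (-1.42) and miR-805 (-1.01) passed the threshold, while miR-715 (0.52) did not. With the 75th percentile over all probes, miR-689 was -0.0577 (probes -0.0978 and -0.0176), miR-720 -0.62 (probes -0.65 and -0.59), miR-715 0.38 and the array scaling factor 0.13. With the median over detected probes, miR-720 was -0.0354 (probes -0.0656 and -0.00512), miR-715 0.97 and the scaling factor -0.46. miR-715 also lost its call with quantile normalization (0.58), normexp (0.11), the floor of 1 unit (1.13), the ordinary linear model (1.13), the total gene signal (1.16) and no filter on dim probes (0.31). Leaving out wild-type mice 3 and 4 together, an alternative chosen after seeing the data, turned miR-690 to 0.0457 (probes 0.0780 and 0.0135). With 1 array left out, miR-689 ranged from 0.59 to 0.83, miR-715 from 1.03 to 1.31, miR-720 probe 1 from -0.0546 (without megabladder mouse 4) to 0.25, and the scaling factor from -0.76 to -0.47, where the exact p could not go below 0.0667. The authors' deposited table gave no value for a member. The cause of these changes was not tested.

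The count of called microRNAs, 7, became 69 unscaled, 0 with the 75th percentile over all probes, 2 with the median, 0 with quantile normalization and 1 with normexp. It was 0 with the floor of 1 unit, 3 with the ordinary model, 0 with total gene signal, 1 with the authors' deposited table, 0 without filter, 4 with probes above background on all arrays and 1 without wild-type mice 3 and 4. Without 1 array it ranged from 0 to 19: 19 without megabladder mouse 3, 1 without wild-type mouse 4 and, without wild-type mice 1, 2 or 3 or megabladder mouse 2, 0. Counts of 0 from limma had 26 to 107 microRNAs at an unadjusted p under 0.05. The probe count, 0, became 89 unscaled, 3 with the median, 2 with normexp, 2 with the ordinary model, 7 with probes above background on all arrays, 7 with the median over spots, and 1 without wild-type mice 3 and 4. It ranged from 0 to 32 without 1 array, 32 without megabladder mouse 3 and 5 without megabladder mouse 4.

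Same-numbered mice 2, 3 and 4 deviated with r of -0.21, 0.01 and 0.21, against a highest r with another number of 0.19, 0.32 and 0.08. Only mouse 4 was most like its own number, and so few pairs cannot settle whether mouse numbers pair the kidneys. With the mouse number as a replicate block, 28 microRNAs were called, 27 higher and 1 lower, and no member's call changed (miR-715, 1.03). Both miR-715 and miR-805 rest on 1 dim probe near the floor, which limits their precision.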
